A study of Mus musculus with 4 samples.

Results

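The expression of 10 transcriptional regulator genes of presomitic and paraxial mesoderm, called factors here, was followed between 2 sorted populations of Flk-1 positive cells. The genes were Tbx6, Msgn1, Mesp2, Ripply2, Foxc1, Foxc2, Meox1, Tcf15, Pax3 and Tbx18. They were found by gene symbol among probe sets annotated with exactly 1 symbol, and for each gene the probe set with the highest mean over the 4 arrays was kept. All 10 were measured, on 14 probe sets, among 18193 genes in all. The cells were derived from TT2 mouse embryonic stem cells, heterozygous for a Venus reporter knocked into Etv2, so that both populations carried the modified allele. They had been differentiated to day 5 on OP9 stroma, a mouse marrow line that feeds mesoderm and blood cultures, and sorted for Flk-1, a VEGF receptor and the product of Kdr. The Flk-1+/Etv2- population was negative and the Flk-1+/Etv2+ population positive for Venus, with 2 arrays of each, numbered 1 and 2. The reporter reads activity of the Etv2 locus, an ETS factor gene of the blood and endothelial lineages. The labels name no clones and do not say whether separate cultures were used for the arrays, so the p-values cover only the spread among these arrays, and that may be technical.

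Paraxial mesoderm leaves the primitive streak, passes through the presomitic mesoderm as a tissue patterned by Notch, Wnt and FGF signals, and is then cut into somites. Tbx6 and Msgn1 specify presomitic cells, Mesp2 and Ripply2 act where the next somite boundary forms, and Meox1, Tcf15, Pax3 and Tbx18 are used in the formed somite and its compartments. Foxc1 and Foxc2 are forkhead factors of paraxial mesoderm that also act in the vasculature. Flk-1 positive mesoderm is best known as a source of blood, vessels, heart and muscle.

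Of the 10 factors, 8 had a difference below 0, where 46.97% of all genes did. The 2 above 0 were Foxc2 and Tcf15, and the intervals given for them below include 0. Tbx6 in the Etv2-Venus positive cells stood well below its level in the negative cells, Mesp2 and Foxc1 were lower by smaller amounts, Foxc2 pointed the other way, and the somite factors Tcf15, Pax3 and Tbx18 differed little, by 0.071, -0.18 and -0.023 on the log2 scale. Values are log2 expression after RMA, and differences are the positive minus the negative population with the standard error (SE) of a limma fit over all genes. None of the 10 passed a Benjamini-Hochberg adjusted p of 0.05, and the share of all 18193 genes called was 0%. At an unadjusted limma p under 0.05, 3 of the 10 were lower in the positive cells, Tbx6, Mesp2 and Foxc1, where 4.64% of all genes were, and 0 were higher, where 7.07% of all genes were. Both positive arrays lay below both negative arrays for 5 of 10, adding Msgn1 and Meox1, where 17.0% of all genes were so placed. Both positive arrays lay above for 1, Foxc2, where 22.4% of all genes were. The median difference of the 10 was -0.24, beside 0.011 over all genes, and it was -0.094 without array 2 of the negative cells. With 2 arrays against 2 an exact permutation test of a single gene cannot give a two-sided p below 0.333. In RNA from pooled cells, fewer cells expressing a gene and less of its RNA per cell cannot be told apart.

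**Figure D1:**
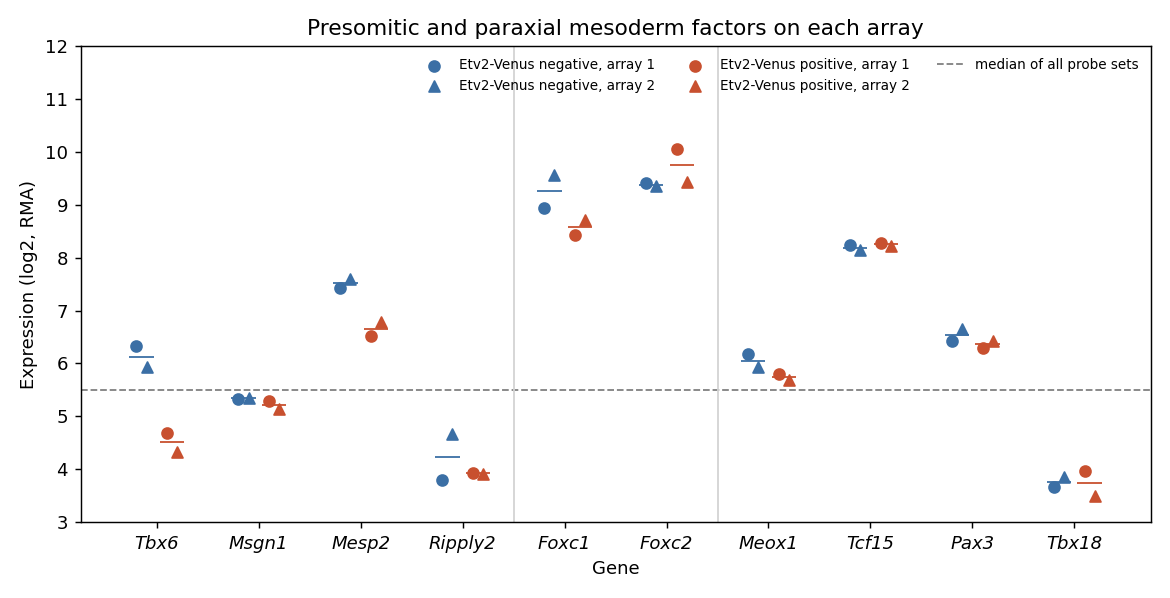
Log2 expression (y axis) of the 10 factors (x axis) on each array, with blue for the Etv2-Venus negative and red for the positive population, circles for array 1, triangles for array 2, short bars for group means and a dashed line for the median of all probe sets, 5.49. Tbx6 lay above that line on both negative arrays and below it on both positive arrays, and levels of different genes should not be compared because probe sets differ in response.

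Tbx6, a T-box factor required for paraxial over neural fate, was at 6.34 and 5.92 in the negative cells against 4.69 and 4.33 in the positive cells. Both positive arrays were therefore below both negative arrays, and the gap between the populations was wider than the gap between arrays of either. The difference was -1.62 (SE 0.20, 3.07-fold, limma adjusted p = 0.0879), with a 95% interval from -2.14 to -1.10, and it ranked as the 13th lowest of all genes. Within the arrays numbered 1 it was -1.64 and within those numbered 2 it was -1.60. Both positive arrays were below the median of all probe sets, 5.49, where RMA compresses differences, so the size is uncertain, and detection calls were not used here.

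Mesp2, a basic helix-loop-helix factor that sets the anterior part of the coming somite, read 7.42 and 7.60 on the Etv2-Venus negative arrays, against 6.52 and 6.78 on the positive ones. Again the populations did not overlap. The difference was -0.86 (SE 0.13, 1.81-fold, limma adjusted p = 0.112), the 124th lowest of all genes, and it was -0.90 and -0.82 within the arrays numbered 1 and 2. Its neighbour on the chromosome is its paralogue Mesp1, a factor of nascent mesoderm and heart precursors, with 0 genes between them in the RefSeq annotation of GRCm38.p6. Mesp1 gave 10.86 and 10.73 in the Etv2-Venus negative cells and then 9.23 and 9.07 in the positive cells, for a difference of -1.64 (SE 0.11, limma adjusted p = 0.0670). Whether the Mesp2 probe set also reads Mesp1 transcripts was not tested.

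The stretches upstream of the start sites of Tbx6, Mesp2 and Mesp1 are shown because these 3 genes were lower together. Each is the 250 bases before the RefSeq start site, 5′ to 3′ on the gene's strand, from GRCm38.p6. Capitals mark matches to the E-box CANNTG, the motif of basic helix-loop-helix factors such as Msgn1, Mesp2 and Tcf15, or to TCACAC, a core of the T-box half-site, searched on both strands.
Tbx6 (chr7:126781233-126781482, plus strand): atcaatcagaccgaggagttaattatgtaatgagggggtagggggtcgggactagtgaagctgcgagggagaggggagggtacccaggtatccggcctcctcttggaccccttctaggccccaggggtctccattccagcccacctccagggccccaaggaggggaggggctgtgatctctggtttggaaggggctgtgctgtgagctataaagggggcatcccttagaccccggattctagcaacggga
Mesp2 (chr7:79810477-79810726, plus strand): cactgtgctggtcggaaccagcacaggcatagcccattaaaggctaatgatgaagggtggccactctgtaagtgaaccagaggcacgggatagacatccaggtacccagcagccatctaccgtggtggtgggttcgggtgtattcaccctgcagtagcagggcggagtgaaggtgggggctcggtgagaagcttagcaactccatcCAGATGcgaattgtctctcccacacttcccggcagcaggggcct
Mesp1 (chr7:79793591-79793840, minus strand): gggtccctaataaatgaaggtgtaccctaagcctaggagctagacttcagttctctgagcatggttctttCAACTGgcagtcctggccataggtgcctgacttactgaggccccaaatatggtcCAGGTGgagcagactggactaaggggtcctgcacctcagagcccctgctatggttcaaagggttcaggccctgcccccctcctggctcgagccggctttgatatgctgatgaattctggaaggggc
The Mesp2 stretch held 1 E-box, CAGATG, at bases 44 to 39 before the start, and the Mesp1 stretch held 2, while the Tbx6 stretch held neither motif. The stretch of Foxc1, the other factor lower at an unadjusted limma p under 0.05, is not shown and also held neither. Such stretches were in the table used for 6 of the 10 factors: Tbx6, Msgn1, Mesp2, Ripply2, Foxc1 and Tbx18. An E-box was in 4 of these 6, where 66.2% of 32851 RefSeq stretches of the same length had one. The T-box half-site was in 1 of the 6, where 12.3% of all stretches had it. That was Ripply2, with TCACAC at bases 127 to 122 before the start, and it is shown as the 1 stretch of the 6 with that motif.
Ripply2 (chr9:87015287-87015536, plus strand): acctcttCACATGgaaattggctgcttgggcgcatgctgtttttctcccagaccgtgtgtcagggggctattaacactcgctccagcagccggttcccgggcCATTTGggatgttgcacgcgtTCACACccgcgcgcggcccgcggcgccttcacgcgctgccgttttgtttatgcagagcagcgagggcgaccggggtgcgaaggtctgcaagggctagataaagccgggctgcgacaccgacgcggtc
A match here describes the letters only.

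Msgn1 and Ripply2, the other presomitic factors, had small differences beside their spread. Msgn1, a basic helix-loop-helix factor that drives exit from the progenitor state, was at 5.33 and 5.34 in the negative cells against 5.30 and 5.13 in the positive cells. Its difference of -0.12 (SE 0.10, limma adjusted p = 0.747) had a 95% interval from -0.39 to 0.14. All 4 values lay just below the median of all probe sets, and whether the transcript was detected there was not tested. Ripply2, a corepressor that ends Tbx6 activity at the boundary, read 3.80 and 4.67 on the Etv2-Venus negative arrays, against 3.94 and 3.91 on the positive ones. The groups overlapped, and the difference of -0.31 (SE 0.30) rested on array 2 of the negative cells: without that array it was 0.13. Ripply2 was dim on all 4 arrays.

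**Figure D2:**
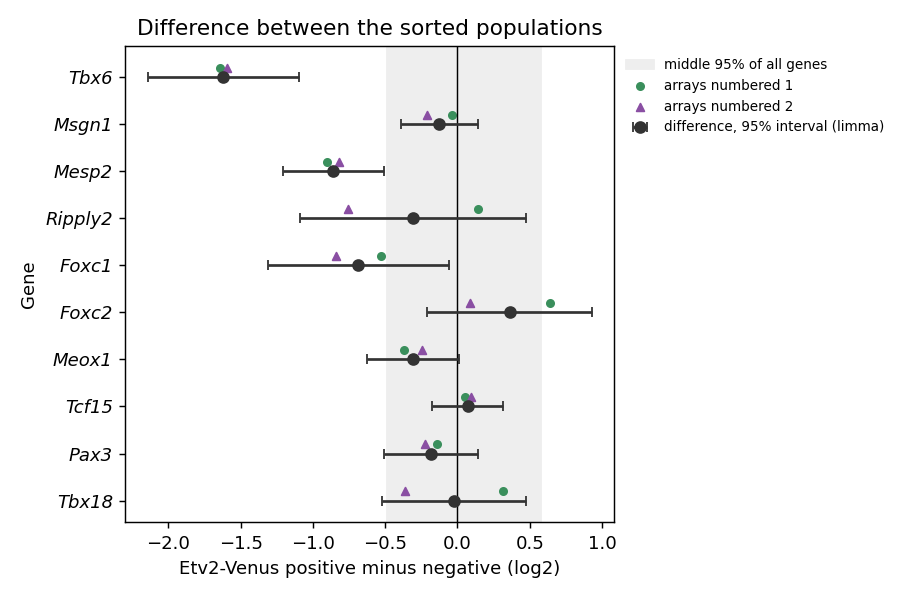
Difference between the populations (x axis, Etv2-Venus positive minus negative, log2) for each factor (y axis), as black points with the 95% interval of the limma fit, with the values within arrays numbered 1 (green circles) and 2 (purple triangles) and a grey band for the middle 95% of all genes. Tbx6, Mesp2 and Foxc1 lay below the band, at -1.62, -0.86 and -0.69, and the values for the 2 array numbers of Ripply2 and Tbx18 had opposite signs.

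Foxc1 and Foxc2, paralogues that are partly redundant in somite formation, had differences of opposite sign. Foxc1 gave 8.95 and 9.56 in the Etv2-Venus negative cells and then 8.42 and 8.72 in the positive cells. The lower negative array stood only slightly above the higher positive one, so the groups were apart by little. The difference was -0.69 (SE 0.24, 1.61-fold, limma adjusted p = 0.386), with an interval from -1.31 to -0.056. The unadjusted limma p of 0.0383 became 0.118 without array 2 of the negative cells, where the difference was -0.38. It was 0.154 without array 1 and 0.0533 without array 2 of the positive cells. Without array 1 of the negative cells it was 0.00778, with a difference of -0.99. The other Foxc1 probe set read 7.77 and 8.38 against 7.27 and 7.60, a difference of -0.64 of the same sign and similar size.

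Foxc2 was at 9.41 and 9.35 in the negative cells against 10.05 and 9.44 in the positive cells. Array 1 of the positive cells alone was clearly high, and the other positive array stood just above the negative arrays. The difference was 0.36 (SE 0.22, limma adjusted p = 0.631), with an interval from -0.21 to 0.93. With array 1 of the positive cells left out it came to 0.056, and with array 2 left out to 0.67. Foxc1 minus Foxc2 within each array was -0.46 and 0.21 in the negative cells against -1.63 and -0.72 in the positive cells. The contrast of -1.05 between the populations thus had the same sign in every combination of arrays. Its two-sided exact permutation p was 0.333, the smallest this design allows, and 0.333 after adjustment over the 2 pairs compared. That sign and that unadjusted p were fixed beforehand, because both positive arrays lay below both negative arrays for Foxc1 and above them for Foxc2. The contrast therefore adds no support to the results of the single genes. The other pair, Tbx6 with Msgn1, is not read here, because Msgn1 lay below the median of all probe sets on all 4 arrays.

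The somite factors showed small differences. Meox1, a homeobox factor of early somites, read 6.17 and 5.93 on the Etv2-Venus negative arrays, against 5.80 and 5.69 on the positive ones. The groups did not overlap, and the difference was -0.31 (SE 0.12, limma adjusted p = 0.444), with an interval from -0.63 to 0.011. Tcf15, also called paraxis, keeps the somite epithelial. It gave 8.23 and 8.14 in the Etv2-Venus negative cells and then 8.29 and 8.23 in the positive cells, which overlapped. Its difference was 0.071 (SE 0.093, limma adjusted p = 0.868), and the interval from -0.17 to 0.32 was the narrowest of the 10. Tcf15 therefore stood clearly above the median of all probe sets in both populations with no difference detected between them.

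Pax3, a paired box factor of the dorsal somite and of muscle precursors, was at 6.43 and 6.66 in the negative cells against 6.29 and 6.43 in the positive cells. These overlapped, with a difference of -0.18 (SE 0.12, interval -0.50 to 0.14, limma adjusted p = 0.679). The other 2 Pax3 probe sets were dimmer and had differences of -0.086 and -0.092. Pax3 is also a gene of the dorsal neural tube and neural crest, and 13 markers of those tissues were measured. At an unadjusted limma p under 0.05, 1 was lower and 1 higher, beside 4.64% and 7.07% of all genes. The lower was Zic2, at -0.60 (SE 0.12), and the higher Ets1, which is also an endothelial factor, at 0.78 (SE 0.11). Sox2 was at -0.71 (SE 0.29). The part of such cells in the Pax3 value was not tested. Tbx18, a T-box factor of the anterior part of the somite, read 3.66 and 3.85 on the Etv2-Venus negative arrays, against 3.98 and 3.49 on the positive ones, a difference of -0.023 (SE 0.19) that became 0.016 with the arrays centred on their medians. All its values were far below the median of all probe sets, and its second probe set, at 3.25 and 3.18 against 3.30 and 3.16, was dimmer still.

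The signalling genes that surround these factors in presomitic mesoderm included genes with large differences. Of 24 listed, 23 were measured, and 0 passed after adjustment over all genes. At an unadjusted limma p under 0.05, 10 of the 23 were lower in the positive cells and 1 higher. Among all genes 4.64% were lower and 7.07% higher. The median difference of the 23 was -0.39. Pcdh8, a protocadherin of the segmenting mesoderm, gave 9.81 and 10.07 in the Etv2-Venus negative cells and then 7.76 and 7.71 in the positive cells, for a difference of -2.20 (SE 0.12). Dact1, a modulator of Wnt signalling, was at 9.84 and 9.96 against 8.37 and 8.40, a difference of -1.51 (SE 0.094). Both had a limma adjusted p of 0.0670, and in both the spread within a population was small beside the gap.

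Other parts of the segmentation machinery had differences of varied size, and the genes named next were chosen after their values were seen. The Notch ligands Dll1, activated by Tbx6, and Dll3 were at -1.89 (SE 0.19) and -1.83 (SE 0.16). Epha4, a receptor of the boundary, was at -1.10 (SE 0.10) and Aldh1a2, which makes retinoic acid in the somites, at -1.27 (SE 0.18). Lfng, which modifies Notch, was at 6.59 and 6.38 in the negative cells against 6.13 and 5.96 in the positive cells, for a difference of -0.44 (SE 0.12, limma adjusted p = 0.283). Hes7, a clock repressor, was dim and overlapped, at 5.47 and 5.14 against 5.22 and 5.32. The receptor Notch1 was at 0.38 (SE 0.23) and Notch2 at -0.15 (SE 0.10), and neither reached an unadjusted limma p under 0.05. Fgf8, a signal of the posterior presomitic mesoderm, read 9.49 and 8.07 on the Etv2-Venus negative arrays, against 8.02 and 6.82 on the positive ones. Its arrays differed nearly as much by number as by population, and the difference of -1.36 (SE 0.61) had an unadjusted limma p of 0.0814. Rspo3, a Wnt potentiator, was the member that was higher, at 0.42 (SE 0.15).

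**Figure D3:**
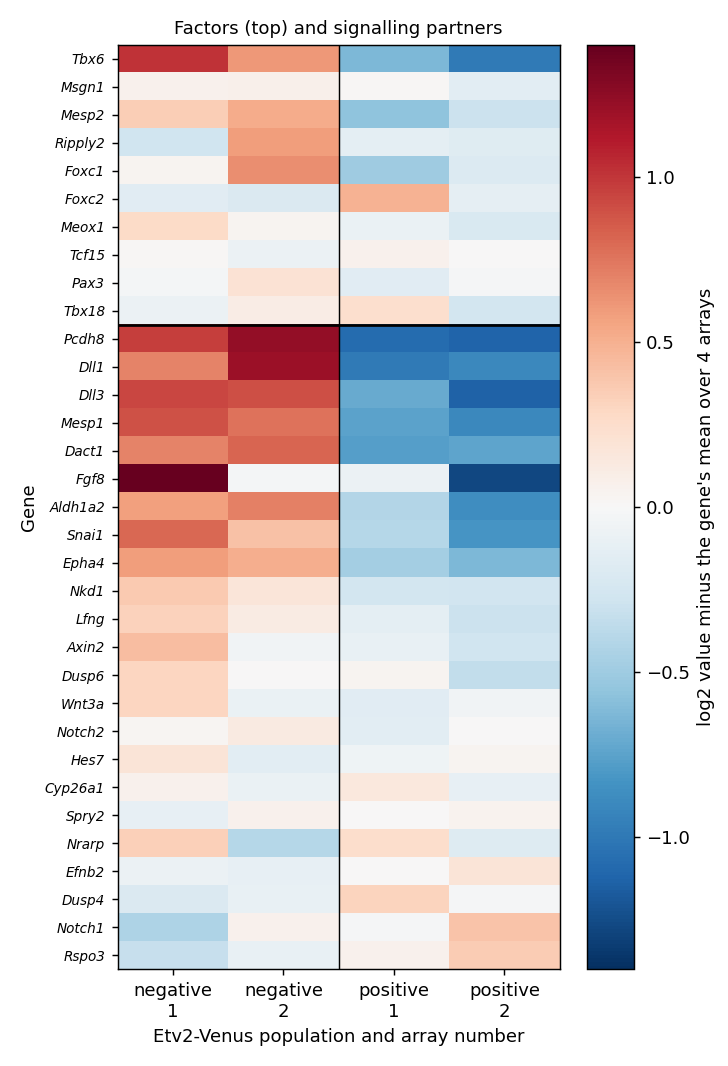
Log2 values minus each gene's mean over the 4 arrays (colour, red above and blue below the mean) for the 10 factors above the line and 23 presomitic signalling genes below it, with 1 column per array. Tbx6 and Mesp2 shared the red to blue step between the populations with Pcdh8, Dll1, Dll3, Mesp1 and Dact1, while Tcf15, Pax3 and Msgn1 were pale throughout.

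Of the T-box relatives of Tbx6 and Tbx18, 13 of 15 listed were found by symbol, and their median difference was -0.062. T and Tbx10 were not found under those symbols, and other names for them were not searched. At an unadjusted limma p under 0.05, 5 of the 13 were lower and 0 higher, beside 4.64% and 7.07% of all genes. Eomes, a factor of the streak and of early mesoderm, was at 12.40 and 12.06 in the negative cells against 11.24 and 11.17 in the positive cells, for a difference of -1.03 (SE 0.14). Tbx2 and Tbx3, known from heart and limb, were at -0.95 (SE 0.21) and -0.65 (SE 0.15). Tbx6 had a lower difference than each of the 13. Later genes of the somite and of muscle, cartilage and tendon formed from it were mostly dim: 14 of 16 had a mean below the median of all probe sets. None of the 16 had an unadjusted limma p under 0.05, and 0 passed after adjustment, with differences from -0.25 to 0.29. Twist1, a mesenchymal helix-loop-helix factor, was the 1 gene of that list with a mean of at least 6, and it overlapped at 9.08 and 8.91 against 9.46 and 9.08. Tbx15 and Tbx22 were in both lists.

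**Figure D4:**
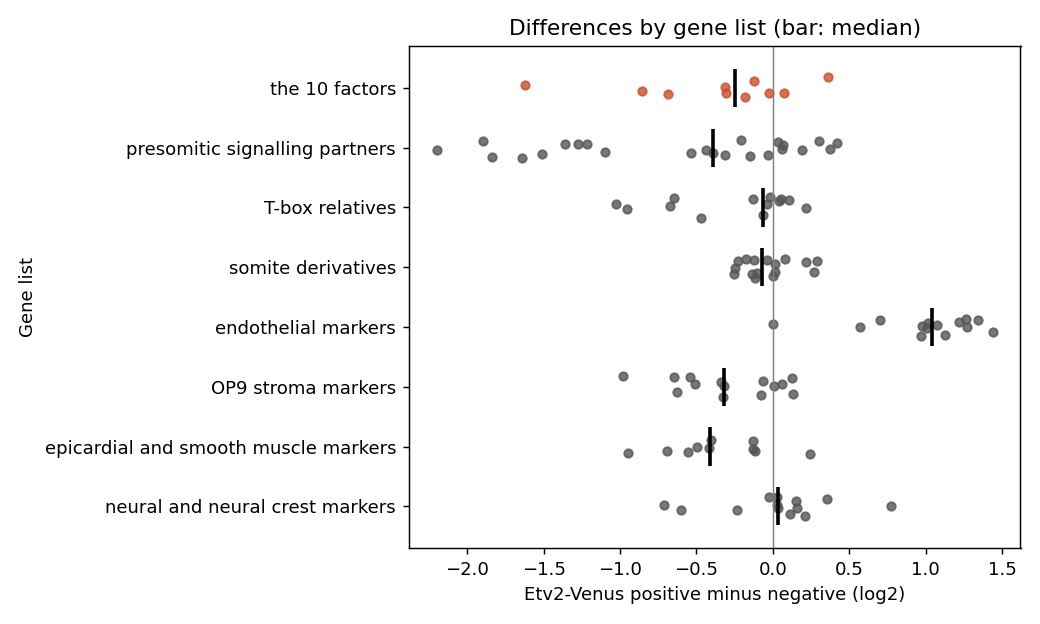
Difference between the populations (x axis, Etv2-Venus positive minus negative, log2) for each measured gene of 8 lists (y axis, points moved apart vertically for view), with the 10 factors in red and a black bar at each median. The factors had a median of -0.24, the presomitic signalling genes -0.39, the T-box relatives -0.062 and the somite derivatives -0.071. The epicardial and smooth muscle markers had -0.41, the OP9 stroma markers -0.32, the neural and neural crest markers 0.031 and the endothelial markers 1.04.

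Genes whose 4 values ran most like those of Tbx6 were sought by the Euclidean distance between values centred on each gene's own mean, among 12176 genes with a mean of at least 5. The nearest were Cachd1, at a distance of 0.25, Mesp1, at 0.25, and Gna14, at 0.26, and 28 genes lay within 0.5. Cachd1 gave 11.86 and 11.60 in the Etv2-Venus negative cells and then 10.49 and 10.17 in the positive cells, and Gna14, a G protein subunit, 7.25 and 6.47 against 5.41 and 5.02. For Meox1 the nearest were Tet1, a dioxygenase that acts on methylated DNA, Frat1 and Tab3, at distances of 0.014, 0.020 and 0.024. Within 0.5 of Meox1 lay 8467 genes. Meox1 itself varied little, so that radius takes in nearly flat genes too, and its count is not comparable with that of Tbx6. The distances rest on 4 arrays and carry no test.

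The labels were checked on genes of the sort and on markers of other cells. Kdr overlapped, at 12.51 and 12.68 against 12.64 and 12.81. Etv2 was at 12.03 and 11.87 against 12.64 and 12.41, a difference of 0.57 (SE 0.13, 1.49-fold, limma adjusted p = 0.185). Etv2 thus read far above the median of all probe sets, 5.49, in the Venus negative cells too. Pdgfra, a receptor of paraxial and other early mesoderm, was at 10.11 and 9.41 against 8.55 and 7.67. Of 14 endothelial markers 13 were higher and 0 lower at an unadjusted limma p under 0.05, beside 7.07% and 4.64% of all genes. The markers with the smallest p were Fli1, Erg and Sox18, at 1.44, 1.27 and 1.22. The array medians ran from 5.46 to 5.52, and the number of arrays limits the precision.

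Markers of OP9-like stroma differed by array number and, less, by population, and are given because stroma shares the culture. Over the 14 measured of 15 listed, the log2 of the mean signal was 7.69 and 6.83 in the negative cells against 7.45 and 6.24 in the positive cells. At an unadjusted limma p under 0.05, 3 of the 14 were lower and 0 higher, beside 4.64% and 7.07% of all genes. The median difference of the 14 was -0.32. Cxcl12, a chemokine of marrow stroma that other mesenchymal cells also express, was at -0.63 (SE 0.11). It was slightly higher on array 2 within each population, at 8.46 and 8.57 against 7.79 and 7.98. Pdgfrb and Adipoq, at -0.51 (SE 0.34) and -0.98 (SE 0.69), overlapped. Tbx6, like the median of the stroma markers, was lower on array 2 within each population, with differences from array 1 of -0.41 and -0.36. So were Meox1, with -0.24 and -0.11, Foxc2, with -0.054 and -0.61, and Tcf15, with -0.098 and -0.058. Of these, Foxc2 and Tcf15 were not lower in the positive cells. Foxc1, Mesp2 and Pax3 ran the other way, higher on array 2 by 0.62 and 0.30, by 0.18 and 0.26, and by 0.23 and 0.14. Msgn1, Ripply2 and Tbx18 were higher on array 2 in the negative cells and lower in the positive cells. Within arrays of the same number, the differences of Tbx6 and Mesp2 were as given above, and those of Foxc1 were -0.53 and -0.84. Their sign was fixed beforehand, because both positive arrays lay below both negative arrays for each gene. It is therefore no check on the array number. Epicardial and smooth muscle markers were followed because Tbx18 and Foxc1 are also expressed there. Their mean signal was 8.51 and 8.17 on the negative and 7.88 and 7.41 on the positive arrays, and their median difference was -0.41. At an unadjusted limma p under 0.05, 1 of 10 was lower and 0 higher, beside 4.64% and 7.07% of all genes. The lower was Rgs5, at -0.94 (SE 0.13). Cnn1 and Acta2 were at -0.42 (SE 0.18) and -0.41 (SE 0.19). The part of these cells in the differences of the 10 factors was not tested.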

How the data were processed

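Total RNA of sorted cells was given a biotin label with the Affymetrix 3'IVT Express Kit, per the labels' protocols. The deposited log2 values per probe set come from RMA (R 2.8.0) run by the authors, as the submitters' processing notes name these tools, and the log base was taken from their range of 2.16 to 14.93. Such values are relative between arrays. Control probe sets were left out, and of the rest 34945 had 1 symbol in the platform annotation, 932 several, and 9160 were not listed. Symbols were checked through Entrez identifiers against RefSeq genes of GRCm38.p6, used for names, neighbours and upstream sequences only, and 0 changed.

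The kept probe sets of 18193 genes were fitted in limma 3.58.1 (R 4.3.3; lmFit, eBayes) on the population alone, 2 residual and 2.68 prior degrees of freedom, two-sided, with Benjamini-Hochberg adjustment over all genes. Groups and array numbers came from the titles. The fit was tested on simulated data. The factors, gene lists and tests were chosen with earlier results of these data known. Genes were named as all 10 factors, up to 3 per list with the smallest p and a mean of at least 6 in 1 population, Etv2, Kdr and Pdgfra, and the 3 genes nearest to Tbx6 and Meox1. The other presomitic signalling genes named were chosen after their values were seen, as marked there. The closing section gives the alternatives. Figures were drawn with matplotlib 3.10.9.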

Additional observations from a re-analysis of the deposited data

How the results depend on the processing

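Alternatives were testing every probe set, averaging each gene's probe sets, a filter on means of at least 6, a robust fit with a mean-variance trend, a repeat of quantile normalization, centring arrays on their medians, a block for the array number, that block with the trend, and leaving out each array. Tbx6, Mesp2 and Foxc1 were lower in all of these that fitted them, from -1.83 to -1.41, -0.99 to -0.73 and -0.99 to -0.38. In many of these the sign was fixed beforehand. Testing every probe set, the trend and the block do not move a difference. Leaving out an array cannot turn its sign where the populations do not overlap. Tbx6, Msgn1, Ripply2, Meox1 and Tbx18 had means below 6 and dropped out under that filter. The count of factors past an adjusted p of 0.05 was 0 in every alternative except the replicate block with the trend, which gave 3: Tbx6 (limma adjusted p = 0.0153), Mesp2 (0.0209) and Foxc1 (0.0444), with 977 genes called. The filter on means called 79 genes and the trend alone 112, none of them a factor, and the other alternatives called 0 genes. The replicate block alone gave 0, with 4 factors lower at an unadjusted p under 0.05 against 3 without it, while the share of all genes lower went from 4.64% to 8.85%. Arrays of the same number deviated together (r = 0.54 over 18193 genes, which are not independent), but with 2 pairs the numbers are not known to pair cultures. Leaving out each array gave 2 to 4 factors lower at that unadjusted p, where 2.45% to 4.23% of all genes were, and a median of the factors from -0.29 to -0.094, the latter without array 2 of the negative cells. Without single arrays Ripply2 ran from -0.74 to 0.13 and Tbx18 from -0.27 to 0.22, and Tbx18 turned to 0.016 with arrays centred on their medians. Centring moved the median of all genes from 0.011 to 0.050. Signals near or below the median of all probe sets limit what can be said of Ripply2, Tbx18, Msgn1 and the positive arrays of Tbx6.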
